A study of Mus musculus with 29 samples.

Results

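The Zbtb genes encode transcription factors that join an N-terminal BTB domain to C-terminal zinc fingers. They were taken from the count table as every gene whose symbol is Zbtb followed by a number, with or without a letter suffix, which gave 38 of the 22537 genes. One of them, Zbtb8os, matches by its symbol alone: it is named for its place opposite Zbtb8a and encodes archease, a protein of the tRNA ligase complex with neither domain. In a BTB zinc finger protein the BTB domain forms dimers and binds corepressors such as NCoR and BCOR or the ubiquitin ligase scaffold Cul3, while the zinc fingers choose the DNA sequence. Most members studied so far act mainly as repressors, several are master regulators of lymphocyte lineages, and a subset binds methylated CpG. In muscle, the family is known for Zbtb18 in myoblast differentiation and for Zbtb42, which is mutated in a lethal congenital contracture syndrome.

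The tibialis anterior (TA) muscle was taken whole from untreated male C57BL/6 mice and its poly-A RNA sequenced at 6m (n = 7), 24m (n = 7) and 28m (n = 8; labelled 28+ months old). The first NextSeq550 run held the 24m and 6m mice, and the second held the 28m mice together with a repeat library of every 6m mouse, so each old age was compared with 6m libraries of its own run. The 6m control of both comparisons is therefore the same 7 animals, and 24m and 28m mice were never sequenced together. Expression is given in CPM (counts scaled to a common library size) after TMM scaling over all 29 libraries, and a gene is called when the Benjamini-Hochberg adjusted p over all genes tested is under 0.05 in edgeR's quasi-likelihood F test.

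Total counts per library were between 17633475 and 33499162, of which 9510 to 17937 fell on the 38 Zbtb genes. The muscle fibre markers took between 149583 and 223655 CPM of each library in sum. In the first run, the libraries of 6m mouse 4 and 24m mouse 4 stood apart. The median of the 37 Zbtb genes lay 0.20 below the 6m mean on the log2 scale in the first and 0.30 below it in the second, against -0.09 to 0.14 in the other 12 libraries of the run. The second library of 6m mouse 4 had a median deviation of -0.00.

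Promoter sequences from RefSeq (GRCm38.p6) were at hand for 33 of the 38 genes, in 40 windows. Shown are the 250 bases before the start site of 5 genes called lower at 28m whose window holds no annotated exon: the methyl-CpG binders Zbtb4 (chr11:69765662-69765911, + strand) and Zbtb33 (chrX:38189543-38189792, + strand), then Zbtb34 (chr2:33431325-33431574, - strand), Zbtb39 (chr10:127739280-127739529, + strand) and Zbtb46 (chr2:181424389-181424638, - strand), whose start site here lies inside the annotated gene. The sequences run 5′ to 3′ along the gene and capitals mark CpG.
Zbtb4: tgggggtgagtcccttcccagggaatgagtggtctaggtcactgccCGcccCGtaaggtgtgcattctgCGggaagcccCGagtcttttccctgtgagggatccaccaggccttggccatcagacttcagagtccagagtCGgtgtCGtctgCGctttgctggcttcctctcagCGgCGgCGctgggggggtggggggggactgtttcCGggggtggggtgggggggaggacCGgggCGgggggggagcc
Zbtb33: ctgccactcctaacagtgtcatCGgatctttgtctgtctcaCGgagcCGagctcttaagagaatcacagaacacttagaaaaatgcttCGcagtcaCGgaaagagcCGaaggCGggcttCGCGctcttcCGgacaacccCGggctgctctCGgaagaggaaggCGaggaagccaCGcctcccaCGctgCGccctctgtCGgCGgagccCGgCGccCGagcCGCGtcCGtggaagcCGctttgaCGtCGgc
Zbtb34: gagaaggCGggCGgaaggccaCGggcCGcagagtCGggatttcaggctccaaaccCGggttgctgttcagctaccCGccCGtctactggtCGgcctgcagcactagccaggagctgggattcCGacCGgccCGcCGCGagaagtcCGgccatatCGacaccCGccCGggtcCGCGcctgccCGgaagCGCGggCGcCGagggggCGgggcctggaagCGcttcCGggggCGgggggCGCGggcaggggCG
Zbtb39: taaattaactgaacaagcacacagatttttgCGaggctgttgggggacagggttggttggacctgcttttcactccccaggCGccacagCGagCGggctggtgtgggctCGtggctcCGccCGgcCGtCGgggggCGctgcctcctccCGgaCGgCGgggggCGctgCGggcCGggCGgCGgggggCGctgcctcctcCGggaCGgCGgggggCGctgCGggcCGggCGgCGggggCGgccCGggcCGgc
Zbtb46: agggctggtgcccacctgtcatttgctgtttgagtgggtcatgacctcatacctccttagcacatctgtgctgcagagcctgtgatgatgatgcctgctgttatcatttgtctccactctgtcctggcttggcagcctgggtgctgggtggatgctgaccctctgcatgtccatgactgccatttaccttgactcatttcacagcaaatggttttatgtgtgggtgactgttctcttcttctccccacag

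The CpG content of these windows ranges widely, from 0 CpG in Zbtb46 and 13 in Zbtb4 to 27 in Zbtb33, 30 in Zbtb39 and 32 in Zbtb34. Over the 40 windows of Zbtb genes the median was 20 CpG, against 15 in the 11941 windows of genes tested at 28m. The median was 22.5 CpG in the 16 windows of genes called lower, 20 in the 21 windows of genes not called and 15.5 in the 2 windows of genes called higher. Of the 40 windows only 16 hold no annotated exon, and some genes have more than 1 window. Zbtb7c, Zbtb10, Zbtb16, Zbtb40 and Zbtb48, all called at 28m, have none. The sequence TCCTGCNA, described as a Kaiso site that needs no methylation and searched on both strands, was in 1 of the 40 windows (2.5%, against 4.04% of the windows of genes tested), that of Zbtb37. The E-box CACGTG was in 4 windows (10%, against 8.26%). These matches are letters in a window and not measured binding.

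In 6m muscle the Zbtb genes spanned a wide range of levels. Per kilobase of annotated exon, averaged over the 2 libraries of each mouse, Zbtb16 was highest of the 38 genes with 15.2 ± 7.15 CPM per kb (SD, n = 7 mice). Zbtb17 (Miz1, the partner through which Myc represses promoters) followed with 11.7 ± 0.828 and Zbtb22 with 8.15 ± 0.298 CPM per kb. Zbtb16 and Zbtb17 do not differ beyond the spread of Zbtb16, and Zbtb4 (7.66 ± 0.769), Zbtb44 (7.56 ± 0.645), Zbtb7b (7.2 ± 0.818) and Zbtb7a (7.09 ± 0.386) form a close series below Zbtb22. At the bottom of the tested genes, Zbtb37 had 0.0643 ± 0.0166 CPM per kb over an annotated exon length of 18814 bases. Zbtb8b had 0 or 1 count in every library and was not tested.

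Zbtb16 stood out for the spread between 6m mice. It had a coefficient of variation of 47.2%, against 3.66% for Zbtb22 and 7.06% for Zbtb17. The level repeated between the 2 libraries of a mouse in 6 of the 7 animals. In mouse 3 it was 149 CPM in the first library and 150 CPM in the second. In mouse 5 it was 103 and 99 CPM, in mouse 7 93.8 and 94.7 CPM, in mouse 6 58.8 and 58.4 CPM. Mouse 1 gave 65.8 and 70.3 CPM and mouse 2 gave 43.9 and 53.3 CPM. Mouse 4 was the exception, with 24.9 CPM in the library that stood apart and 57 CPM in its repeat.

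At 28m, 20 of the 37 Zbtb genes tested were called, 17 lower and 3 higher than at 6m. The called share was 54.1%, against 47.3% of all 12994 genes tested. The share called lower was 45.9%, against 22.9% of all genes, and the share called higher was 8.11%, against 24.3%. The median log2 fold change was -0.23 over the 37 genes and 0.01 over all genes. In whole muscle, fewer cells of a type and less RNA per cell cannot be told apart. Without Zbtb8os, 17 of 36 genes were lower and 2 higher.

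**Figure D1:**
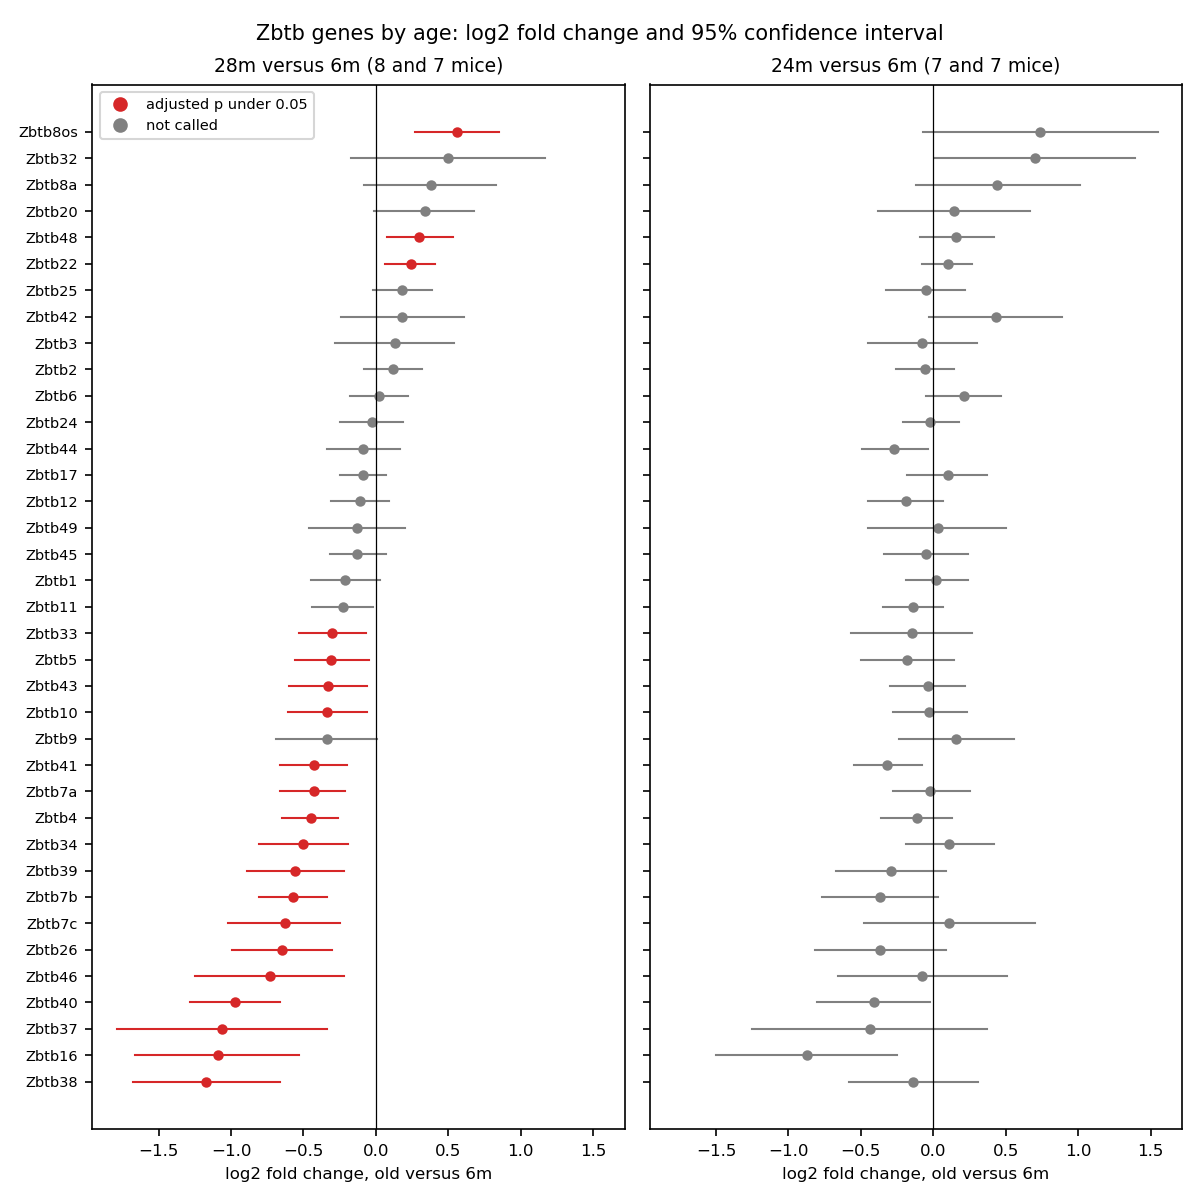
Log2 fold change (x axis) of the 37 Zbtb genes tested, ordered by their value at 28m, for 28m versus 6m on the left and 24m versus 6m on the right. Points are estimates, bars are 95% confidence intervals and red marks an adjusted p under 0.05. On the left 17 genes are red below 0 and 3 above it, and on the right none is red.

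The direction of the Zbtb genes at 28m moved with their annotated exonic length. Across genes, longer genes were lower at 28m, with a Spearman correlation of -0.539 between exonic length and log2 fold change over 12871 genes with a length, and of -0.559 over the 37 Zbtb genes. The genes of one table share their libraries and are not independent. Zbtb genes are long: the median exonic length was 5591 bases over those tested and 4491 over all genes. It was 6808 bases for those called lower, 3199 for those called higher and 4210 for those not called.

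With the trend along length and GC content removed from every library, 11 Zbtb genes were called (29.7%, against 37.5% of all genes), 7 lower and 4 higher. The lower share was then 18.9%, against 15.7% of all genes, and the higher share 10.8%, against 21.8%. The median log2 fold change was -0.07, against 0.03 over all genes. Zbtb7b, Zbtb7c, Zbtb16, Zbtb33, Zbtb38, Zbtb39 and Zbtb40 were called lower under both treatments, Zbtb33 only narrowly, and Zbtb8os and Zbtb48 higher. A trend along length was also found at 24m (Spearman -0.269 over 12977 genes, -0.459 over 37 Zbtb genes) and between the 2 libraries of the same 6m mice, second run against first (0.455 over 12763 genes, 0.4 over 36 Zbtb genes). The quartiles of the log2 fold change over all genes ran from -0.08 to 0.09 between the 6m libraries and from -0.33 to 0.34 at 28m. A trend along length was thus present between libraries of the same animals, and the part of library preparation in the trend at 28m was not tested.

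Among the members that bind methylated CpG, Zbtb38, Zbtb4 and Zbtb33 fell at 28m, where 45.9% of the Zbtb genes and 22.9% of all genes were called lower. Zbtb38 (CIBZ) had 33 to 46 CPM in the 6m mice (median 41.9) and 7.88 to 31.2 CPM in the 28m mice (median 16.4). All 8 mice at 28m lay below all 7 at 6m. Its log2 fold change was -1.17 ± 0.24 (SE, adjusted p = 0.00176), and -0.78 (adjusted p = 0.0029) with the trend removed. Such complete separation below 6m was found for 3 Zbtb genes, Zbtb38, Zbtb40 and Zbtb41, or 8.11%, against 6.66% of all genes, and separation above 6m for 0, against 5.65%.

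Zbtb4, which also binds an unmethylated sequence, had 58.2 to 69.7 CPM at 6m (median 66.8) and 40.8 to 59.9 CPM at 28m (median 44). In all, 7 of the 8 old mice lay below all 6m mice. On the log2 scale the fold change was -0.45 ± 0.09 (adjusted p = 0.00164), and -0.06 and not called with the trend removed. Zbtb4 was also not called with first-run libraries as the 6m control, but was without the library of that control that stood apart. Zbtb33 (Kaiso) had 10.9 to 12.8 CPM at 6m (median 11.5) and 6.82 to 11.8 CPM at 28m (median 9.21). Its log2 fold change was -0.30 ± 0.11 (adjusted p = 0.0338). With the trend removed it was -0.27 and passed only narrowly, with an adjusted p of 0.05 after rounding. In the 15 fits that each omitted a mouse it ran from -0.35 to -0.24, and 8 of them narrowly ended the call, with adjusted p up to 0.0661. With first-run libraries as the 6m control it was -0.23 and not called (adjusted p = 0.168). Without the library of that control that stood apart it was -0.30 and again not called (adjusted p = 0.0518). Of Zbtb33's annotated exon, 9.25% is shared with the opposite strand of Tmem255a, and the strand setting of the counting is not stated.

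For comparison, of 5 methyl-CpG readers without a BTB domain tested (Mbd1, Mbd2, Mbd3, Mbd4 and Uhrf2), 0 were called lower at 28m and 1, Mbd3, rose (log2 fold change 0.29 ± 0.11, adjusted p = 0.0428), against 22.9% of all genes called lower and 24.3% called higher. Their median log2 fold change was -0.00. With the trend removed, none of the 5 was called.

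Several members are best known from blood and immune cells. Zbtb16 (PLZF), which directs innate-like lymphocytes and is induced by glucocorticoids in many tissues, had 53.3 to 150 CPM at 6m (median 70.3) and 18.4 to 71.6 CPM at 28m (median 39.4). Of the 8 old mice 7 lay below all 6m mice, and 28m mouse 4 had the 71.6 CPM. With all mice, the log2 fold change was -1.09 ± 0.27 (adjusted p = 0.00438), and -0.96 (adjusted p = 0.00698) with the trend removed. Zbtb16 has 5283 bases of exon, near the middle of the family, and it stayed called in every alternative tried.

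Zbtb7b (ThPOK), the switch for CD4 T cell fate and a repressor of type I collagen genes, had 32.9 to 46.1 CPM at 6m (median 42.7) and 20.6 to 36.5 CPM at 28m (median 27.7). In all, 7 of the 8 old mice lay below all 6m mice. It fell by 0.57 on the log2 scale (SE 0.11, adjusted p = 0.00125), with a log2 fold change of -0.31 (adjusted p = 0.0285) once the trend was removed. Its relative Zbtb7a (LRF), a repressor of fetal globin genes and of Cdkn2a, had 47.2 to 59.8 CPM at 6m (median 51.6) and 29.3 to 50.6 CPM at 28m (median 37.3). The log2 fold change of Zbtb7a was -0.43 ± 0.11 (adjusted p = 0.00479), and -0.07 (adjusted p = 0.508) with the trend removed. With first-run libraries as the 6m control it was -0.24 and not called (adjusted p = 0.159), and -0.31 and called (adjusted p = 0.0441) without the library of that control that stood apart. The 3 genes of this subfamily fell together, but only Zbtb7b and Zbtb7c stayed called with the trend removed. Zbtb7c, at the low level of 0.869 to 2.22 CPM at 6m (median 1.37) and 0.719 to 1.24 CPM at 28m (median 0.919), had a log2 fold change of -0.63 ± 0.18 (adjusted p = 0.0103).

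Zbtb46, a gene of classical dendritic cells and of endothelium, had 3 to 5.24 CPM at 6m (median 3.91) and 0.943 to 3.9 CPM at 28m (median 2.17). The groups overlapped, with 5 of 8 old mice below all 6m mice. Zbtb46 had a log2 fold change of -0.73 ± 0.25 (adjusted p = 0.0227). The call was lost with the trend removed (-0.42, adjusted p = 0.0898), with first-run libraries as the 6m control (-0.59, adjusted p = 0.103) and without 6m mouse 6 (-0.66, adjusted p = 0.0526). It was kept when the first-run control lacked the library that stood apart (-0.70, adjusted p = 0.0441). For the marker lists that follow, the shares over all genes were 22.9% lower and 24.3% higher. Of the 12 endothelial markers, 7 were lower and 2 higher at 28m, and their summed level was 397 to 537 CPM at 28m against 598 to 690 CPM at 6m, without overlap. Of the 8 immune markers tested 0 fell and 1, Xcr1, a marker of a dendritic cell subset, rose (1.16 ± 0.39, adjusted p = 0.0245). Fibroblast markers fell too, 6 of 10, with summed levels of 670 to 1700 CPM at 28m and 1281 to 4098 CPM at 6m. Of the other lists, 2 of 8 adipocyte markers rose, 2 of 7 satellite cell markers fell, 1 of 8 Schwann cell markers rose, and of 12 muscle fibre markers 2 fell and 5 rose. These last counts, of 1 to 5 genes each, are read as no result about the cell types. With the trend removed, 6 endothelial markers were lower and 1 higher, and 4 fibroblast markers were lower. Of all genes, 15.7% were then called lower and 21.8% higher. The part of these cell types in the fall of Zbtb46 or of other members was not tested.

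T and B cell markers were sparse. Cd3e, Cd4, Cd8a, Cd79a and Ms4a1 failed the filter on low counts. The part of lymphocytes in the levels of these genes was not tested. Zbtb32, an inhibitor of lymphocyte activation, was near the limit of detection with 0.182 to 0.586 CPM at 6m and 0.24 to 1.09 CPM at 28m (log2 fold change 0.50 ± 0.32, adjusted p = 0.204). Zbtb1, required for lymphoid development, had a log2 fold change of -0.21 ± 0.11 (adjusted p = 0.13).

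**Figure D2:**
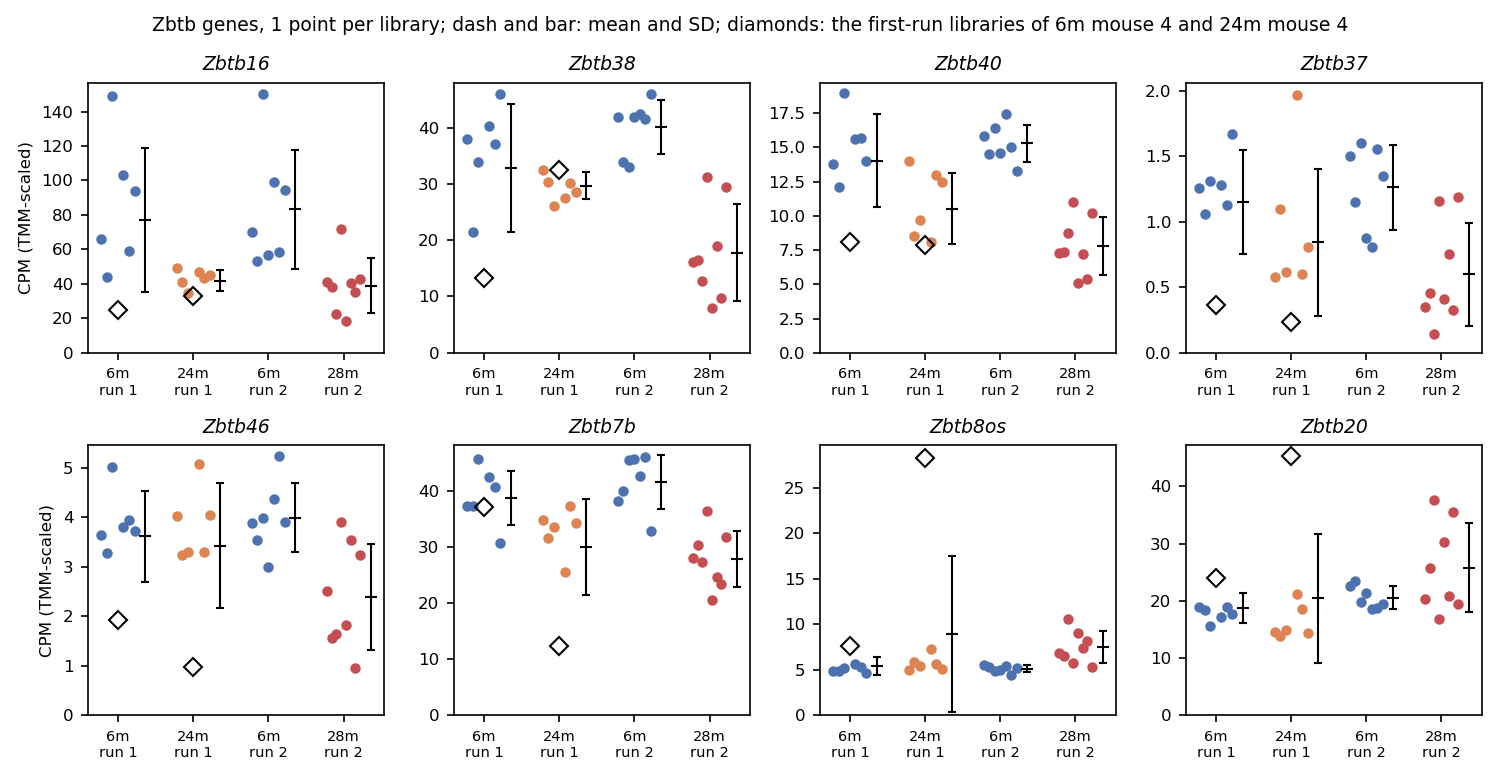
Level of 8 Zbtb genes (y axis, TMM-scaled CPM) in every library of the 4 groups (x axis). Each point is 1 library, the dash and bar are mean and SD, and open diamonds are the first-run libraries of 6m mouse 4 and 24m mouse 4. Zbtb38 and Zbtb40 show no overlap between 28m and the 6m mice of that run, and in the panels of Zbtb8os and Zbtb20 the 24m diamond lies above all other points.

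Among members with less defined roles, Zbtb40, which lies at a locus linked to bone density in humans, gave the smallest adjusted p. It had 13.3 to 17.4 CPM at 6m (median 15) and 5.09 to 11 CPM at 28m (median 7.33), with no overlap. Its fold change on the log2 scale was -0.97 ± 0.14 (adjusted p = 0.000381), and -0.53 (adjusted p = 0.00545) with the trend removed. Zbtb41 also separated fully, with 23.8 to 31 CPM at 6m and 12.4 to 22.8 CPM at 28m. Its log2 fold change was -0.43 ± 0.11 (adjusted p = 0.00511), and -0.15 with the trend removed.

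Zbtb37 had 0.806 to 1.6 CPM at 6m (median 1.35) and 0.144 to 1.19 CPM at 28m (median 0.434). It was counted by only 3 to 28 reads in a 28m library. The log2 fold change of -1.06 ± 0.34 (adjusted p = 0.0187) placed it with Zbtb16 and Zbtb38 as the members past both DEG limits of the study, which add to the adjusted p a change of 1 or more on the log2 scale (8.11% of Zbtb genes and 5.7% of all genes). The call was lost with the trend removed (-0.65, adjusted p = 0.0734) and with first-run libraries as the 6m control (-0.94, adjusted p = 0.0703), but not when that control lacked the library that stood apart (-1.09, adjusted p = 0.0245). Of the annotated exon of Zbtb37, 15.6% is shared with Serpinc1 on the opposite strand.

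Zbtb39 had 8.68 to 11.2 CPM at 6m (median 9.98) and 4.28 to 9.89 CPM at 28m (median 6.44). Its log2 fold change was -0.56 ± 0.16 (adjusted p = 0.0097), with -0.45 (adjusted p = 0.0665) for first-run libraries as the 6m control and -0.54 (adjusted p = 0.0205) without the one that stood apart. Zbtb34 had 5.54 to 6.73 CPM at 6m (median 6.28) and 2.68 to 5.88 CPM at 28m (median 4.42), with 7 of 8 old mice below all 6m mice and a log2 fold change of -0.50 ± 0.15 (adjusted p = 0.0116). Zbtb34 was not called when first-run libraries of the 6m mice took the place of the others (-0.21, adjusted p = 0.324), nor with the trend removed (-0.30, adjusted p = 0.0524).

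Beside Zbtb33, small falls were found for Zbtb10, Zbtb43 and Zbtb5. Zbtb10, a repressor of Sp family transcription factors, had a log2 fold change of -0.34 ± 0.13 (adjusted p = 0.0414), Zbtb43 of -0.33 ± 0.13 (adjusted p = 0.0436) and Zbtb5 of -0.31 ± 0.12 (adjusted p = 0.0494). All 3 lost the call with the trend removed. Of the 15 fits that each omitted a mouse, 11 ended the call of Zbtb5, 10 that of Zbtb43 and 8 that of Zbtb10. Zbtb10 (-0.17, adjusted p = 0.329) and Zbtb43 were also not called with first-run libraries as the 6m control. Zbtb11 (-0.23 ± 0.10, adjusted p = 0.0715) was not called, although 6 of 8 old mice lay below all 6m mice.

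The members called higher were Zbtb8os, Zbtb48 and Zbtb22. Zbtb8os had 4.38 to 5.47 CPM at 6m (median 5.22) and 5.33 to 10.6 CPM at 28m (median 7.11), with 7 of 8 old mice above all 6m mice. It rose by 0.56 on the log2 scale (SE 0.14, adjusted p = 0.00459), and by 0.59 with the trend removed. Zbtb48 (TZAP), which binds telomeric repeats and trims long telomeres, had 2.6 to 3.42 CPM at 6m (median 3.28) and 3.15 to 4.64 CPM at 28m (median 3.83). Its log2 fold change was 0.30 ± 0.11 (adjusted p = 0.0261), with 7 of 8 old mice above all 6m mice. The call of Zbtb48 was lost without 6m mouse 1 (0.27, adjusted p = 0.0564), whose 2.6 CPM was the lowest, and with no filter on low counts (adjusted p = 0.0565). Zbtb22 had 18.1 to 22.8 CPM at 6m (median 21.4) and 20.5 to 30.2 CPM at 28m (median 24.5), a log2 fold change of 0.24 ± 0.08 (adjusted p = 0.0262) that was not called with the trend removed (0.14, adjusted p = 0.183), with first-run libraries as the 6m control (0.15, adjusted p = 0.164), with no filter on low counts (adjusted p = 0.0503) or without 6m mouse 3 (0.21, adjusted p = 0.0589).

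Zbtb20, a repressor of the alpha-fetoprotein gene in liver, had 18.5 to 23.5 CPM at 6m (median 19.7) and 16.8 to 37.6 CPM at 28m (median 23.3). Of the old mice 3 exceeded 30 CPM and 4 lay within or below the 6m range. The log2 fold change was 0.34 ± 0.16 (adjusted p = 0.1) as fitted and 1.03 (adjusted p = 0.00577) with the trend removed. Zbtb20 was also called without 28m mouse 4 (0.41, adjusted p = 0.0351) and against the first-run 6m libraries without the one that stood apart (0.55, adjusted p = 0.0262). The value with the trend removed rests on the union of 21 annotated transcripts with 30730 bases, the longest of the family, and the length of the transcripts present in muscle was not measured.

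Of the members with a known place in muscle, Zbtb16 (-1.09) and Zbtb7a (-0.43), described above, were called lower at 28m, and Zbtb17 and Zbtb42 were not called. Zbtb17 had 41.9 to 51 CPM at 6m (median 43.8) and 34.9 to 49.6 CPM at 28m (median 42.1), and its log2 fold change of -0.09 had a 95% confidence interval of -0.25 to 0.07. Zbtb42, found at the neuromuscular junction, had 1 to 2.47 CPM at 6m and 1.59 to 2.7 CPM at 28m, and the interval of its log2 fold change of 0.18 ran from -0.24 to 0.61. Zbtb18 is listed in the count table under its older symbol Zfp238 and so lies outside the 38. It had 156 to 183 CPM at 6m (median 172) and 75.7 to 170 CPM at 28m (median 141), a log2 fold change of -0.40 ± 0.15 (adjusted p = 0.0407).

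A further 3 family genes appear under older symbols. Zfp651 (Zbtb47) had 216 to 296 CPM at 6m and 84.8 to 197 CPM at 28m, with no overlap and a log2 fold change of -0.66 ± 0.16 (adjusted p = 0.0043). Zfp161 (Zbtb14) had -0.51 ± 0.16 (adjusted p = 0.0175) and Zfp295 (Zbtb21) -0.14 ± 0.10 (adjusted p = 0.254). Per kilobase of exon, Zfp651 and Zfp238 had median levels of 36.8 and 28.1 CPM per kb in the second-run 6m libraries, above the 13.3 CPM per kb of Zbtb16. With the trend removed, Zfp161 alone of the 4 was called (-0.50, adjusted p = 0.0217).

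Some Zbtb genes lie side by side or overlap, which allowed the ratio of 2 neighbours to be compared within each library. In all, 4 pairs lay within 20000 bases or overlapped. Zbtb8a and Zbtb8os overlap on opposite strands and share 264 bases of annotated exon. Zbtb6 and Zbtb26, on the minus strand of chromosome 2, share 449 bases of annotated exon. The log2 ratio of Zbtb6 to Zbtb26 was 0.15 ± 0.22 (SD, n = 7) at 6m and 0.74 ± 0.34 (n = 8) at 28m, higher by 0.59 (exact permutation test, two-sided, p = 0.00311, 0.00746 adjusted over the 4 pairs). Zbtb6 itself had a log2 fold change of 0.02 ± 0.09 (adjusted p = 0.888), while Zbtb26 had 4.15 to 7.53 CPM at 6m and 2.29 to 4.97 CPM at 28m and fell by 0.65 (SE 0.16, adjusted p = 0.00525). With the trend removed Zbtb26 was not called (-0.34, adjusted p = 0.0632). Zbtb26 has 9489 bases of exon and Zbtb6 5080.

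Zbtb1 and Zbtb25 are divergent genes on chromosome 12, with 663 bases between them. The log2 ratio of Zbtb1 to Zbtb25 was 0.98 ± 0.17 at 6m and 0.60 ± 0.23 at 28m, lower by 0.38 on the log2 scale (difference -0.38, exact permutation p = 0.00373, adjusted 0.00746). Neither gene was called on its own, with -0.21 for Zbtb1 and 0.18 for Zbtb25. Zbtb1 has 12190 bases of exon and Zbtb25 3131, so in both shifted pairs it was the longer gene whose level was lower relative to its neighbour. The ratios of Zbtb34 to Zbtb43 (-0.15, exact permutation p = 0.0525, adjusted 0.07) and of Zbtb8a to Zbtb8os (-0.21, exact permutation p = 0.124, adjusted 0.124) did not pass. At 24m no pair passed after adjustment. The ratio of Zbtb6 to Zbtb26 was higher than at 6m by 0.50 (exact permutation p = 0.0239, adjusted 0.0956), and the differences were 0.08 for Zbtb1 to Zbtb25, 0.13 for Zbtb34 to Zbtb43 and -0.10 for Zbtb8a to Zbtb8os.

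The 28m mice were not alike. Over all 37 genes, the median deviation from the 6m mean ran from -0.46 to -0.05 on the log2 scale in the 8 old mice, and from -0.06 to 0.06 in the 6m mice of the run. The 17 genes called lower had a median deviation from the 6m mean between -0.92 and -0.16 in the old mice, and these genes were chosen for being lower in that group. Mice 7, 3 and 5 were lowest with -0.92, -0.70 and -0.66, and mice 4 and 8 were closest to 6m with -0.16 and -0.17. Of those 17 genes, Zbtb38 (31.2 and 29.4 CPM) and Zbtb39 (9.89 and 9.51 CPM) were among those highest in mice 4 and 8. The same held for Zbtb4, Zbtb7a, Zbtb7b, Zbtb16, Zbtb33, Zbtb34, Zbtb37 and Zbtb40. In Zbtb5, Zbtb7c, Zbtb10, Zbtb26, Zbtb41, Zbtb43 and Zbtb46 another 28m mouse exceeded mouse 4 or mouse 8. In the same 2 mice Zbtb8os was lowest, 5.77 and 5.33 CPM, and Zbtb20 was 16.8 and 19.4 CPM.

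**Figure D3:**
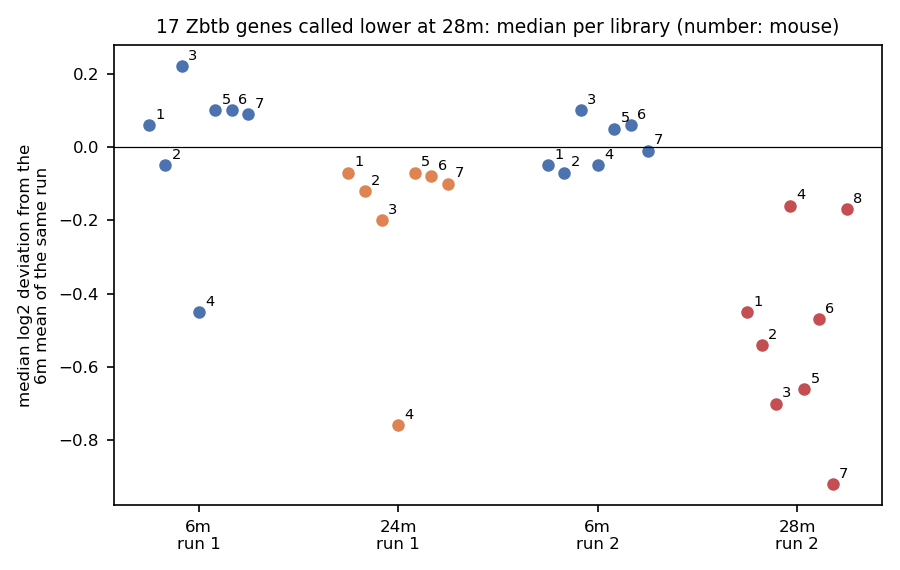
Median over the 17 Zbtb genes called lower at 28m of the log2 deviation from the 6m mean of the same run (y axis), 1 point per library with the number of the mouse, in the 4 groups (x axis). The 28m mice spread from -0.92 to -0.16, and in the first run 6m mouse 4 (-0.45) and 24m mouse 4 (-0.76) lie apart from the rest.

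At 24m, none of the 37 Zbtb genes tested was called, against 11 of 13103 genes (0.084%). Without both libraries that stood apart, 121 of 13139 genes were called (0.921%), and without 24m mouse 4 alone 30 of 13165, again with 0 Zbtb genes. At an unadjusted p under 0.05 there were 5 of 37 (13.5%), against 11.8% of all genes: Zbtb16, Zbtb32, Zbtb40, Zbtb41 and Zbtb44. DESeq2 called 215 genes and limma-voom 12, with 0 Zbtb genes in either. The median log2 fold change was -0.05, against 0.03 over all genes. Because each old age was compared with libraries of the same 6m mice, values at 24m and 28m that point the same way are not independent.

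The lowest log2 fold change at 24m was that of Zbtb16, which was not called. It had 24.9 to 149 CPM in the first-run libraries of the 6m mice (median 65.8) and 32.7 to 49.1 CPM at 24m (median 43.2). The old mice lay in a narrow band inside the wide 6m range. Zbtb16 had a log2 fold change of -0.87 ± 0.29 (adjusted p = 0.303). Without both libraries that stood apart it was -0.98 (adjusted p = 0.0701), and over all alternatives the adjusted p ran from 0.0641 to 0.538.

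Zbtb41 had 23.2 to 30 CPM at 6m and 15.4 to 25.4 CPM at 24m, with 5 of 7 old mice below all 6m mice (log2 fold change -0.32 ± 0.11, adjusted p = 0.311). Zbtb40 had 8.06 to 19 CPM at 6m (median 14) and 7.84 to 14 CPM at 24m (median 9.71). Its log2 fold change was -0.41 ± 0.18 (adjusted p = 0.415). Zbtb38 had 13.3 to 46 CPM at 6m (median 37) and 26.1 to 32.5 CPM at 24m (median 30.2), and a log2 fold change of -0.14 ± 0.21 (adjusted p = 0.78). Without both libraries that stood apart it was -0.30 (adjusted p = 0.271).

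In the library of 24m mouse 4, several members lay far from the other 24m mice. Zbtb8os was 28.3 CPM there and 4.98 to 7.27 CPM in the other 24m mice. Zbtb20 was 45.4 CPM there, with 21.2 CPM the next highest. Zbtb7b was 12.4 CPM there and 25.6 to 37.4 CPM in the others. The log2 fold change of Zbtb8os at 24m was 0.74 ± 0.38 (adjusted p = 0.449) with all libraries and 0.18 (adjusted p = 0.393) without both that stood apart, and that of Zbtb20 turned from 0.14 to -0.12. For Zbtb7b it was -0.37 with all libraries and -0.25 (adjusted p = 0.21) without both. Without 24m mouse 4 alone, the log2 fold change was 0.08 for Zbtb8os, -0.20 for Zbtb20 and -0.23 for Zbtb7b. The same step moved Zbtb33 from -0.15 to -0.01 and Zbtb46 from -0.08 to 0.09.

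The difference between the ages was tested directly, as the 28m effect minus the 24m effect in a model of all libraries. None of the 37 Zbtb genes and 0 of 13455 genes were called, with 2 genes called by DESeq2 and 0 by limma-voom, no Zbtb gene among them. At an unadjusted p under 0.05 there were 6 Zbtb genes (16.2%, against 12% of all genes), all with a lower value at 28m: Zbtb38 (-1.02 ± 0.33), Zbtb34 (-0.60 ± 0.20), Zbtb7a (-0.40 ± 0.16), Zbtb4 (-0.33 ± 0.14), Zbtb40 (-0.55 ± 0.23) and Zbtb7c (-0.73 ± 0.32). Their adjusted p ran from 0.398 to 0.405. Without 24m mouse 4, 1657 genes were called (12.3%), with Zbtb34 as the 1 member among them (2.7%). Without both libraries that stood apart, 0 of 13499 genes were called.

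The 7 mice at 6m gave a measure of the error of preparing a library anew. With the mouse as a block, 0 of 36 Zbtb genes and 0 of 12884 genes were called between the runs, with 4 Zbtb genes (11.1%, against 8.17%) at an unadjusted p under 0.05. Zbtb34 had a higher CPM in the second run in 7 of 7 mice, with a log2 difference of 0.29 ± 0.08 (adjusted p = 0.498). The largest difference of a gene between its 2 libraries came from mouse 4 in 22 of 37 genes. For Zbtb38 mouse 4 had 13.3 CPM in the first library and 41.9 CPM in the second, and the other 6 mice had 21.4 to 46 CPM and 33 to 46 CPM.

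The wider family and its partners were counted from lists. Of 8 BTB zinc finger genes under other symbols, 3 fell at 28m and 0 rose: Bcl6 (-0.65 ± 0.19, adjusted p = 0.0116), a repressor in germinal centre B cells and metabolism, Hic1 (-0.65 ± 0.13, adjusted p = 0.00149), a tumour suppressor, and Zfp131 (-0.35 ± 0.10, adjusted p = 0.00904). Of all genes, 22.9% were called lower and 24.3% higher. The median of the list was -0.25 over the 8, and with the trend removed 2 were lower and the median was -0.09. Of 15 corepressor partners, 5 fell and 3 rose (8 of 15 called, against 47.3% of all genes), and the median was -0.08. Those that fell were the scaffolds Ncor1 (-0.49 ± 0.08), Bcor (-0.64 ± 0.16) and Bcorl1 (-0.67 ± 0.20), with Tbl1x (-0.91 ± 0.21) and Cul3 (-0.61 ± 0.15). Those that rose were Sin3b (0.40 ± 0.08), the deacetylase gene Hdac1 (0.32 ± 0.09) and Rbx1 (0.40 ± 0.15). With the trend removed the corepressor list held 2 lower and 4 higher genes.

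Of the genes reported elsewhere as targets of members of the family, 3 of 4 tested were higher at 28m, against 24.3% of all genes. The part of the Zbtb genes in this was not tested. Cdkn1a, the p21 cell cycle inhibitor reported as a target of Zbtb17 and Zbtb5, had a log2 fold change of 2.20 ± 0.37 (adjusted p = 0.000678). Id2 and Id3, inhibitors of myogenic factors reported as targets of Zbtb18, had 1.09 ± 0.25 (adjusted p = 0.00302) and 0.98 ± 0.19 (adjusted p = 0.00137). Cdkn2b had 0.03 ± 0.19 (adjusted p = 0.918), and Cdkn2a and Afp were too low to test. The 3 genes were also higher with the trend removed. At 24m no gene of these 4 lists was called. The log2 fold change at 24m was 2.70 ± 0.61 for Cdkn1a (adjusted p = 0.121), 1.06 ± 0.28 for Id2 (adjusted p = 0.196) and 0.41 ± 0.17 for Id3 (adjusted p = 0.387). Cdkn1a had 12.1 to 204 CPM at 24m with a median of 23.6 CPM, and 25.6 to 135 CPM at 28m with a median of 40.4 CPM. The 2 highest 24m mice, with 204 and 132 CPM, weigh on its 24m mean. At 28m a single mouse had the 135 CPM, with 46.6 CPM the next highest. For Id2 the median was 6.12 CPM at 24m and 7.1 CPM at 28m. Without both libraries that stood apart, the 24m log2 fold change was 2.42 ± 0.67 for Cdkn1a (adjusted p = 0.0932) and 0.82 ± 0.25 for Id2 (adjusted p = 0.111).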

How the data were processed

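The authors aligned 75-base single-end reads of poly-A libraries to mm10 with STAR 2.5.4b and deposited raw whole-number counts per gene symbol. The strand setting is not given in the sources used here, so genes sharing exon with another are uncertain. The labels give 7 mice at 24m and 8 at 28m, and the series design text the reverse; the labels were used. Replicates are separate mice, except that each 6m mouse has 2 libraries. Total counts were 17633475 to 33499162 per library; intervals cover the spread between mice.

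Counts were tested with edgeR 4.0.16 in R 4.3.3 (filterByExpr, TMM, quasi-likelihood F test, Benjamini-Hochberg adjustment over all genes at 0.05), checked on simulated data. That 6m libraries pair by mouse comes from their titles; deviations of a mouse's 2 libraries correlated by 0.215 to 0.813. Ratios of neighbours were compared by exact permutation tests. Exonic lengths came from GENCODE M21 (20202 genes matched by symbol and 1897 by synonym), promoters from RefSeq; the length and GC trend was fitted per library.

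Alternatives were DESeq2 1.42.0, limma-voom 3.58.1, other scalings and filters, the trend removed, 6m libraries of the other run, each mouse left out, and the mouse block. Members described singly were those called at 28m with a log2 change of 0.5 or more in either direction, those discussed by the study, the 3 most abundant and those with muscle roles, with values of others where a pattern needed them. The members and lists were chosen with earlier results of these data known. A gene of the corepressor list and one of the methyl-CpG reader list are not reported here and were left out of their counts.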

Additional observations from a re-analysis of the deposited data

Results flagged for a closer look

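Each level of the 21 genes described singly was examined in the 4 groups for a library far from the others, by the gap to the nearest library over the range of the group. Of 84 such checks 12 stood out, where chance gives about 1 in 20. The library of 24m mouse 4 accounted for 5: Zbtb8os at 28.3 CPM and Zbtb20 at 45.4 CPM were high, and Zbtb33 at 3.78 CPM, Zbtb34 at 3.35 CPM and Zbtb39 at 3.65 CPM were low. The first library of 6m mouse 4 accounted for 4, in the same directions: Zbtb8os at 7.59 CPM and Zbtb20 at 24 CPM were high, and Zbtb33 at 7.91 CPM and Zbtb39 at 5.82 CPM were low. In the second library of that mouse the same genes were at 4.91 CPM (Zbtb8os), 21.4 CPM (Zbtb20), 11.6 CPM (Zbtb33) and 8.68 CPM (Zbtb39). The other 3 were Zbtb11 at 21.4 CPM in 6m mouse 3 of the second run and Zbtb48 at 2.6 CPM in 6m mouse 1 of that run, with Zbtb16 at 71.6 CPM in 28m mouse 4. The cause was not tested.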

How the results depend on the processing

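The count of Zbtb genes called at 28m was 20 with all choices as reported. It was 11 (7 lower, 4 higher) with the length and GC trend removed, and 10 (8 lower, 2 higher) with first-run libraries as the 6m control, where 23% of all genes were called against 47.3%. With no filter on low counts it was 14 (13 lower, 1 higher), against 31.8% of all genes. In a setting chosen after seeing the data, it was 17 (14 lower, 3 higher) with that control but without its library that stood apart (36.9% of all genes). Leaving out 1 mouse gave 16 to 22 (43.2% to 59.5% of those tested), against 40.7% to 51.7% of all genes. Zbtb7b, Zbtb7c, Zbtb8os, Zbtb16, Zbtb38 and Zbtb40 were called in every alternative run. Over the 21 genes described singly, 157 of 188 values at 28m kept direction and call, 28 lost the call and 3 gained it, and none reversed. Those for 24m included 3 reversals: Zbtb7a was 0.13 with the trend removed, Zbtb34 was -0.18 against the second-run 6m libraries, and Zbtb20 was -0.12 without both libraries that stood apart (chosen after seeing the data). With 1 mouse left out, 24m values ran from -0.09 to 0.03 for Zbtb7a, -0.09 to 0.23 for Zbtb7c, -0.10 to 0.02 for Zbtb10, -0.20 to 0.22 for Zbtb20 and -0.19 to 0.09 for Zbtb46, none of them called. The count at 24m was 0 in every alternative. The count for the difference of ages ran from 0 to 1 with 1 mouse left out. It was 1 without 24m replicate 4, against 12.3% of all genes. That between 6m runs also ran from 0 to 1, with 1 (Zbtb20) without 6m mouse 4, against 1.44% of all genes. With no replicate block, or with the mouse as a block in limma-voom, these counts stayed 0. Depth limited Zbtb8b, with 0 or 1 count in every library, and bore on Zbtb32 and Zbtb37, whose lowest counts in a library were 2 and 3.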
